A study of Mus musculus with 5 samples.

Results

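The genes of 5 receptors that steer leukocyte migration, Cxcr6, Ccr4, Ccr9, Ccrl2 and Ltb4r1, were followed through the marker lists of tissue group 2 innate lymphoid cells (ILC2s). They were chosen by name, with earlier results of these data known. That all 5 were among the 688 genes that any list holds is therefore not a result. Male wild-type C57BL/6 mice aged 6 weeks provided the cells, from lung, pancreas, bone marrow (BM) and both the small (SI) and large intestine (LI). The cells of 10 mice were pooled, and each tissue gave 1 droplet single-cell 3′ library, so no value below has a replicate or an error. SI ILC2s were sorted as lineage-negative CD45+ KLRG1+ cells with low Thy1 (intermediate in the labels), and those of the other tissues as lineage-negative ST2+ CD25+ cells. The lineage gate removed cells bearing FceRI, CD11b, CD11c, B220 or CD3. BM was flushed from the bone, and collagenase digestion lasted 30 min for pancreas, 60 min for lung and 90 min for LI and SI. The labels state that 1 round of library preparation covered SI, LI and lung, and another covered pancreas and BM. Gut and BM libraries therefore differ in digestion and in preparation as well as in tissue, and these cannot be told apart.

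The authors divided the ILC2s into 36 sub-clusters, 8 in BM, 8 in LI, 6 in lung, 7 in pancreas and 7 in SI, each named here by its tissue and number. For every ordered pair of sub-clusters of a tissue, a "1 versus 1" list names the genes higher in the former than in the latter. A further list for each sub-cluster names the genes higher than in all others of its tissue ("1 versus all"). A gene in the list of LI 1 versus LI 3 is thus read as higher in LI 1 and lower in LI 3. An exception was Sytl3, which stood in both lists of this pair, so its direction there is unclear. The lists give symbols alone, with no level, fold change, p-value or cell number. The depth behind a listing is unknown, its size cannot be given, and absence from a list is no evidence of equal expression. Genes that a whole tissue expresses evenly are in no list, and these lists do not compare tissues with one another. The study made such comparisons separately. It took Ccr9 as an already reported signature of BM ILC2s, and reported Lztfl1 as a BM feature and Alox5 as a pancreas feature.

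Chemokine receptors are G protein-coupled receptors of the cell surface that sense gradients of small secreted proteins and turn them into directed movement. CXCR6 binds CXCL16 and marks many tissue-resident lymphocytes. CCR4 binds CCL17 and CCL22 and is typical of type 2 helper T cells and of T cells that home to skin. CCR9 binds CCL25, which epithelium of the thymus and small intestine secretes, and it guides lymphocytes to the gut. CCRL2 is an atypical member of the family that presents the chemoattractant chemerin without G protein signalling of its own and is induced by inflammatory stimuli. BLT1, the product of Ltb4r1, belongs to another receptor family and binds the lipid leukotriene B4.

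Of the 262 lists, 226 were 1 versus 1 lists and 36 were 1 versus all lists. The receptors took 67 entries in the 1 versus 1 lists and 7 in the 1 versus all lists. Cxcr6 was in 25 of the 1 versus 1 lists, Ccrl2 in 19, Ccr4 in 9, Ccr9 in 9 and Ltb4r1 in 5. A gene of any list was in a median of 6.0. Of the 687 other genes, 42 (6.11%) were in as many lists as Cxcr6 or more, 79 (11.5%) in as many as Ccrl2, and 391 (56.9%) in as many as Ltb4r1. In the 1 versus all lists stood 3 of the receptors, Cxcr6, Ccrl2 and Ccr4, against 44.8% of all 688 genes.

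The tissues differed in how many of the receptors their lists held, and also in how many of all listed genes. The 1 versus 1 lists of BM held 3 of the 5 (Cxcr6, Ccr9 and Ltb4r1), where those lists held 21.2% of all listed genes. The LI lists also held 3 (Cxcr6, Ccr4 and Ccrl2) against 67.6%. The SI lists held all but Ltb4r1, 4 of 5, against 49.1%, and the pancreas lists held Ltb4r1 and Cxcr6 against 19.6%. Lung lists held Ccr9 alone, against 27.5%. With 5 genes these counts are a description, and the denominator counts the genes that were ever listed, because no file names the genes that were tested. Ccr4 and Ccrl2 were listed in the gut alone, and Ltb4r1 in BM and pancreas alone. The share of all genes listed in those tissues alone was not counted, so these listings are not shown to be particular to the receptors. Gut lists were also longer, with a median of 35.5 genes in LI and 30 in SI. The median was 8 in BM, 13 in lung and 12.5 in pancreas.

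**Figure D1:**
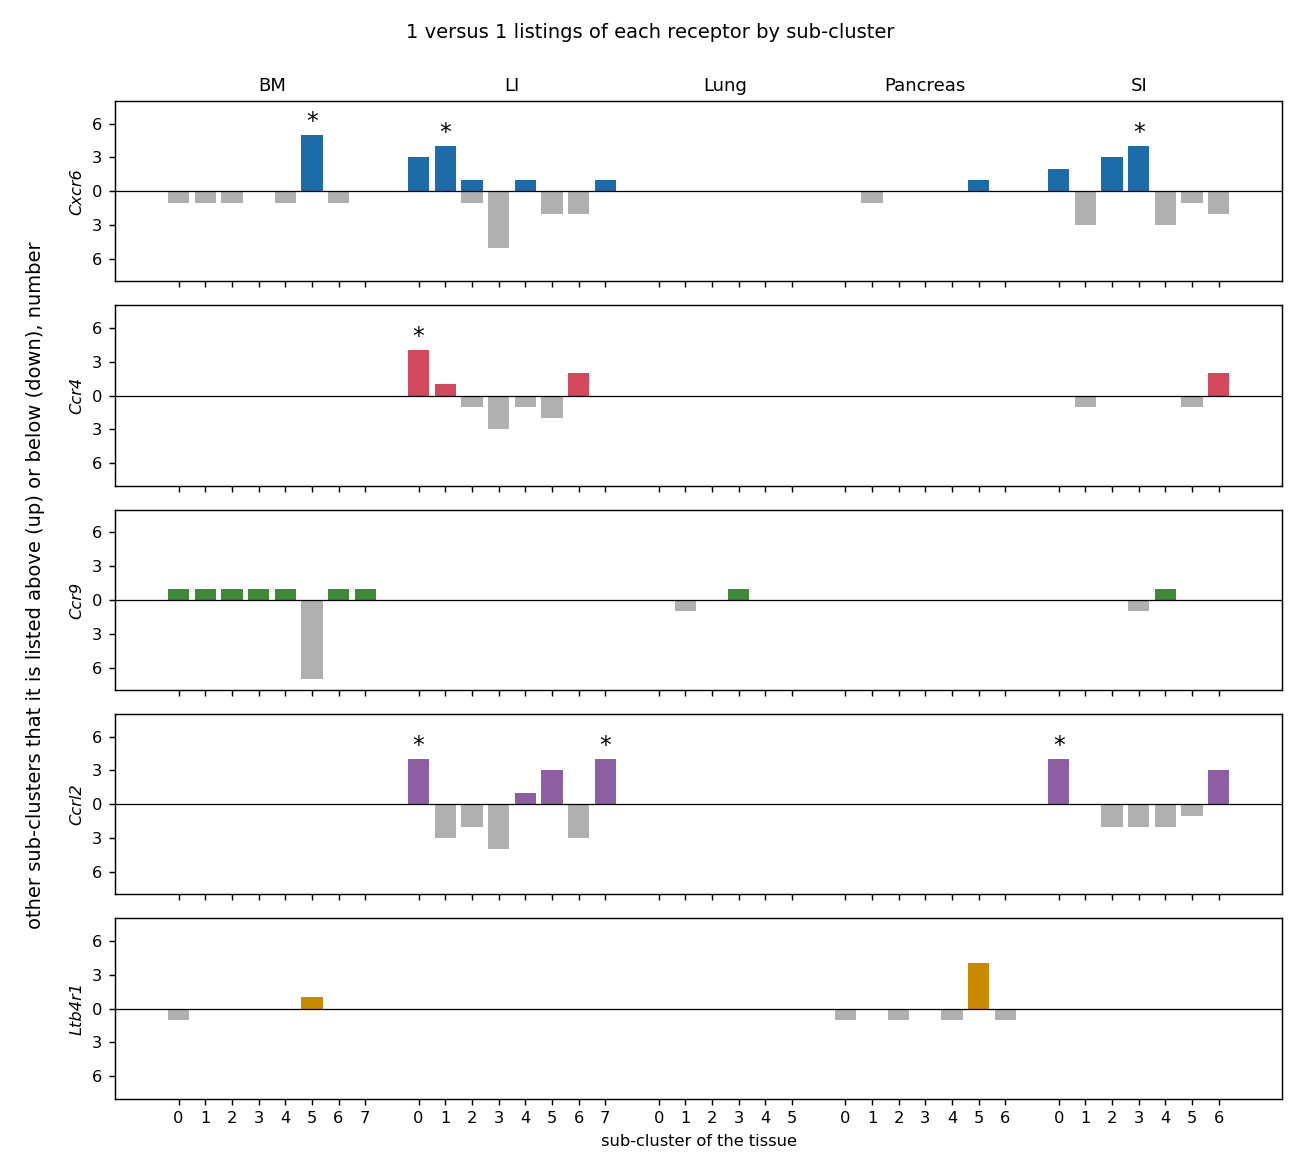
Bars above 0 count the other sub-clusters of the tissue that a sub-cluster is listed above for the receptor, and grey bars below 0 count those it is listed below. The x axis gives the sub-cluster within each tissue, and a star marks a 1 versus all listing. Cxcr6 peaks at BM 5, LI 1 and SI 3, Ccrl2 at LI 0, LI 7 and SI 0, and Ccr9 shows 1 deep trough of 7 at BM 5.

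In the gut, the sub-clusters with Cxcr6 in their 1 versus all lists, LI 1 and SI 3, also had the type 2 cytokine genes Il5 and Il13 there. The gene lies on chromosome 9 of the build used by the authors (mm10, chr9:123806475-123811760, plus strand), inside the span of Fyco1 on the minus strand, which is in none of the lists. Ccr9 (chr9:123678439-123784330, plus strand) ends 22.1 kb before it. Ccr4 (chr9:114490316-114504916) and Ccrl2 (chr9:111054486-111057519) lie on the minus strand of the same chromosome, and Ltb4r1 (chr14:55765962-55768494, plus strand) lies on chromosome 14. The 250 bases before the start of Cxcr6 and of Ccr9 are shown because the genes are neighbours that stand on opposite sides of the same BM lists. They are RefSeq promoter windows of build GRCm38.p6, the assembly of mm10, at chr9:123806227-123806476 and chr9:123766961-123767210, both on the plus strand and written 5′ to 3′. Capitals mark a Runx-type TGTGGT on either strand, which 14% of 32851 windows of this length hold.
Cxcr6 promoter: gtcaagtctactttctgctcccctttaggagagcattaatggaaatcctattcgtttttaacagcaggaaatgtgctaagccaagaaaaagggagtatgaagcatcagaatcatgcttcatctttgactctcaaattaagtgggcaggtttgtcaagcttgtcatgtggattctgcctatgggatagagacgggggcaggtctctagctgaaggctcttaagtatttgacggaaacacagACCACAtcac
Ccr9 promoter: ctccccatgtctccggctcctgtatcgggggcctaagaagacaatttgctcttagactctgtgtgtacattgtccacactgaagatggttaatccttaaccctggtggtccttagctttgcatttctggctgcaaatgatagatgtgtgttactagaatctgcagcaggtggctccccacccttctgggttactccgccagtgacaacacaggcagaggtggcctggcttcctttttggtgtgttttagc
The Cxcr6 window holds this motif from 10 to 5 bases before the start. The Ccr9 window holds none of the 5 motifs that were searched. In it, 42 bases overlap an exon of a retained-intron transcript of Ccr9 in GENCODE.

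In LI, Cxcr6 was listed for 10 of the 28 pairs of sub-clusters. LI 1 was higher than LI 5 (place 6 of 48 in the list), LI 6 (9 of 54), LI 3 (12 of 139) and LI 2 (14 of 28). LI 0 was higher than LI 5 (22 of 54), LI 6 (49 of 106) and LI 3 (54 of 171). LI 3 was also lower than LI 4 (43 of 92), LI 2 (60 of 67) and LI 7 (61 of 147). LI 3, whose own 1 versus all list held Klf6, Jun, Fos and Fosb, was thus the lower side in 5 of the 10. LI 2 was the one sub-cluster found on both sides, below LI 1 and above LI 3, which places LI 1 above LI 2 above LI 3. No list separated LI 0, LI 1, LI 4 and LI 7 from each other, nor LI 3, LI 5 and LI 6. The 1 versus all list of LI 1, led by Il5, had Cxcr6 in place 9 of 14.

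In SI, Cxcr6 was listed for 9 of the 21 pairs. SI 3 was higher than SI 4 (place 3 of 39), SI 6 (6 of 26), SI 5 (7 of 42) and SI 1 (9 of 83). SI 2 was higher than SI 4 (2 of 23), SI 6 (12 of 24) and SI 1 (29 of 91). SI 0 was higher than SI 4 (40 of 50) and SI 1 (64 of 71). Every SI sub-cluster fell on 1 side: SI 0, SI 2 and SI 3 were never lower, and SI 1, SI 4, SI 5 and SI 6 were never higher. The members within each side were not separated by any list. The 1 versus all list of SI 3, again led by Il5, had Cxcr6 in place 3 of 5.

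In BM, all 5 listings of Cxcr6 put BM 5 on the higher side. They were against BM 6 (place 5 of 8), BM 2 (9 of 15), BM 4 (10 of 10), BM 1 (14 of 16) and BM 0 (22 of 23), and BM 3 and BM 7 were not separated from it. The 1 versus all list of BM 5 had Cxcr6 in place 12 of 15. That list was led by Ccl3, a chemokine gene of myeloid and activated lymphoid cells, and also held Mcpt8, a basophil protease gene, and the signalling adaptor genes Tyrobp and Fcer1g. It held 2 of 7 myeloid markers and 1 of 5 basophil and mast cell markers, but none of 9 T cell, 6 NK cell and ILC1 or 5 B and plasma cell markers. Tyrobp was in all 5 of the 1 versus 1 lists with Cxcr6 in BM, and Fcer1g in 3. The gate against CD11b and FceRI would remove myeloid cells and basophils that bear these proteins. The study's methods also state that clusters with the myeloid genes Lyz2, Itgam or Itgax were removed. The part of such cells in the BM 5 listings was not tested. Without every comparison that involves BM 5 or pancreas 6, whose lists held pancreatic acinar genes, Cxcr6 was in 20 lists. In pancreas it was listed once, for pancreas 5 against pancreas 1 (place 13 of 17), and in lung never.

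**Figure D2:**
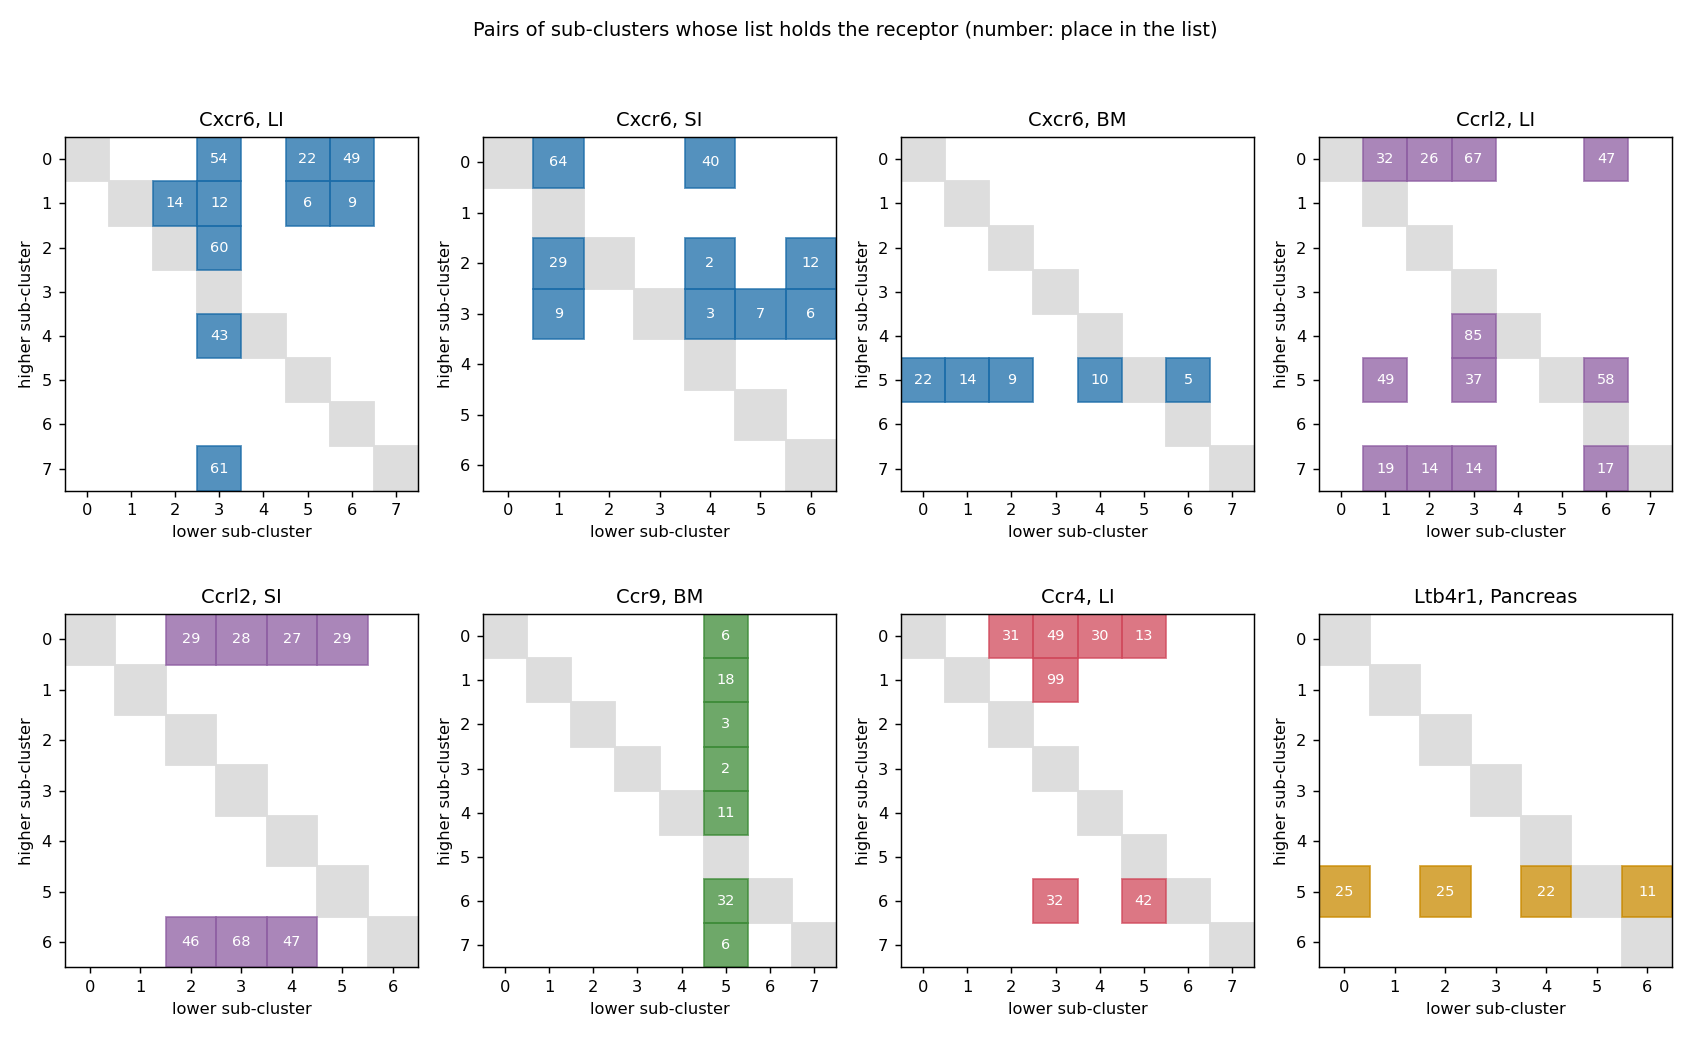
Each panel shows 1 receptor in 1 tissue, with the higher sub-cluster on the y axis and the lower one on the x axis. A coloured cell marks a list that holds the receptor, the number is its place in that list, and grey marks the diagonal. Rows fill for LI 1, SI 3 and BM 5 (Cxcr6) and for LI 0, LI 7 and SI 0 (Ccrl2), while Ccr9 fills the whole column of BM 5.

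The genes whose 1 versus 1 lists were most like those of Cxcr6 were found by the Jaccard index, the lists 2 genes share divided by the lists that hold either. Basp1, which encodes a membrane-bound protein, came first with 16 of 27 lists (0.593). Dgat1, an enzyme of triglyceride synthesis, shared 16 of 32 and Tpm4, an actin-binding tropomyosin, 13 of 26 (0.5 for both, a tie). These shared lists were all from LI and SI. Lists of 1 tissue share sub-clusters and are not independent of each other, so no test was made.

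Of the 25 lists with Cxcr6, 19 held a gene of the type 2 effector group, as did 8 of the reverse lists and 34.5% of all lists. That group includes Dgat1 and Tnfrsf9. From these same data, the study named both with Cxcr6 as features of its gut sub-clusters high in Il5 and Il13. The group count is therefore not independent of that earlier result. The lists with Cxcr6 were also longer, with a median of 48 genes against 16.5 over all 1 versus 1 lists. Their reverse lists had a median of 32, and a longer list holds more of any group. Dgat1 was in 16 of the 25 lists with Cxcr6, Tnfrsf9, a costimulatory receptor, in 13, Calca, which encodes the neuropeptide CGRP, in 10, Il5 in 8 and Il13 in 6. None of Dgat1, Tnfrsf9, Calca and Il5 was in the reverse list of any of these pairs, that is, higher in the sub-cluster where Cxcr6 was lower. Il13 was in 3 reverse lists. The rest of the group divided, with 7 same and 3 reverse lists for Csf2, 3 and 4 for Areg, 2 and 4 for Il4, and 0 and 3 for Il6. Of the ILC2 markers, Id2 was in 13 lists with Cxcr6, Rora in 12, Gata3 in 7 and Il2ra in 6. Those 7 were all but 1 of the 8 lists of Gata3, the transcription factor that defines the lineage, and all were in LI. Il1rl1, Il7r and Thy1, which also define ILC2s, were in no list, which leaves their levels unknown.

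Genes of the NF-kB pathway divided. Nfkb2, a subunit of the non-canonical pathway, was in 8 lists, and Cxcr6 was in all 8. Nfkbie, an inhibitor, was in 5, all of them with Cxcr6, and the subunit gene Rel shared 7 of its 16. Of all genes in at least 5 lists, 9 were in no list without Cxcr6. Nfkb2 and Nfkbie were among them, as were genes outside this group such as Srrd (8 lists) and Gch1 (7). The feedback genes Nfkbia and Tnfaip3 stood on the other side more often, with 2 same and 13 reverse lists for Nfkbia and 5 same and 10 reverse for Tnfaip3.

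Of 18 immediate early genes set against Cxcr6, 13 were in more reverse than same lists, 4 in more same lists, and Atf3 in 4 of each. Jun was in the reverse list for 18 of the 25 pairs and in the same list for 1. Zfp36, which promotes mRNA decay, had 16 reverse and 2 same lists, Ppp1r15a, a stress-induced phosphatase subunit, 16 and 0, Klf6 13 and 0, and Fos 12 and 0. The 4 that went the other way were the orphan nuclear receptor genes Nr4a3 (10 same and 0 reverse), Nr4a1 (6 and 4) and Nr4a2 (2 and 1), and Ier3 (3 and 0). Of 12 heat shock genes, 11 were in a reverse list, led by Hspa1a with 10, and only Dnaja1, with 7, was in a same list. An immediate early gene was in 21 of the 25 reverse lists and in 16 of the same lists, with 45.6% of all lists holding one. A heat shock gene was in 12 of the reverse and 7 of the same lists, with 17.7% of all lists holding one. The list with Cxcr6 was the longer of the pair in 13 of 25. Lists with Cxcr6 had a median of 48 genes and their reverse lists 32, against 16.5 over all 1 versus 1 lists. Both groups are known to be induced by enzymatic digestion and handling of tissue. LI and SI, which gave 19 of the 25 lists, had the same digestion time of 90 min, and the part of handling in these listings was not tested. Cd69, an early activation antigen that holds lymphocytes in tissue, was in 11 reverse lists, and Klf2, which drives the genes for exit from tissue, in 10. Neither was in a list with Cxcr6.

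**Figure D3:**
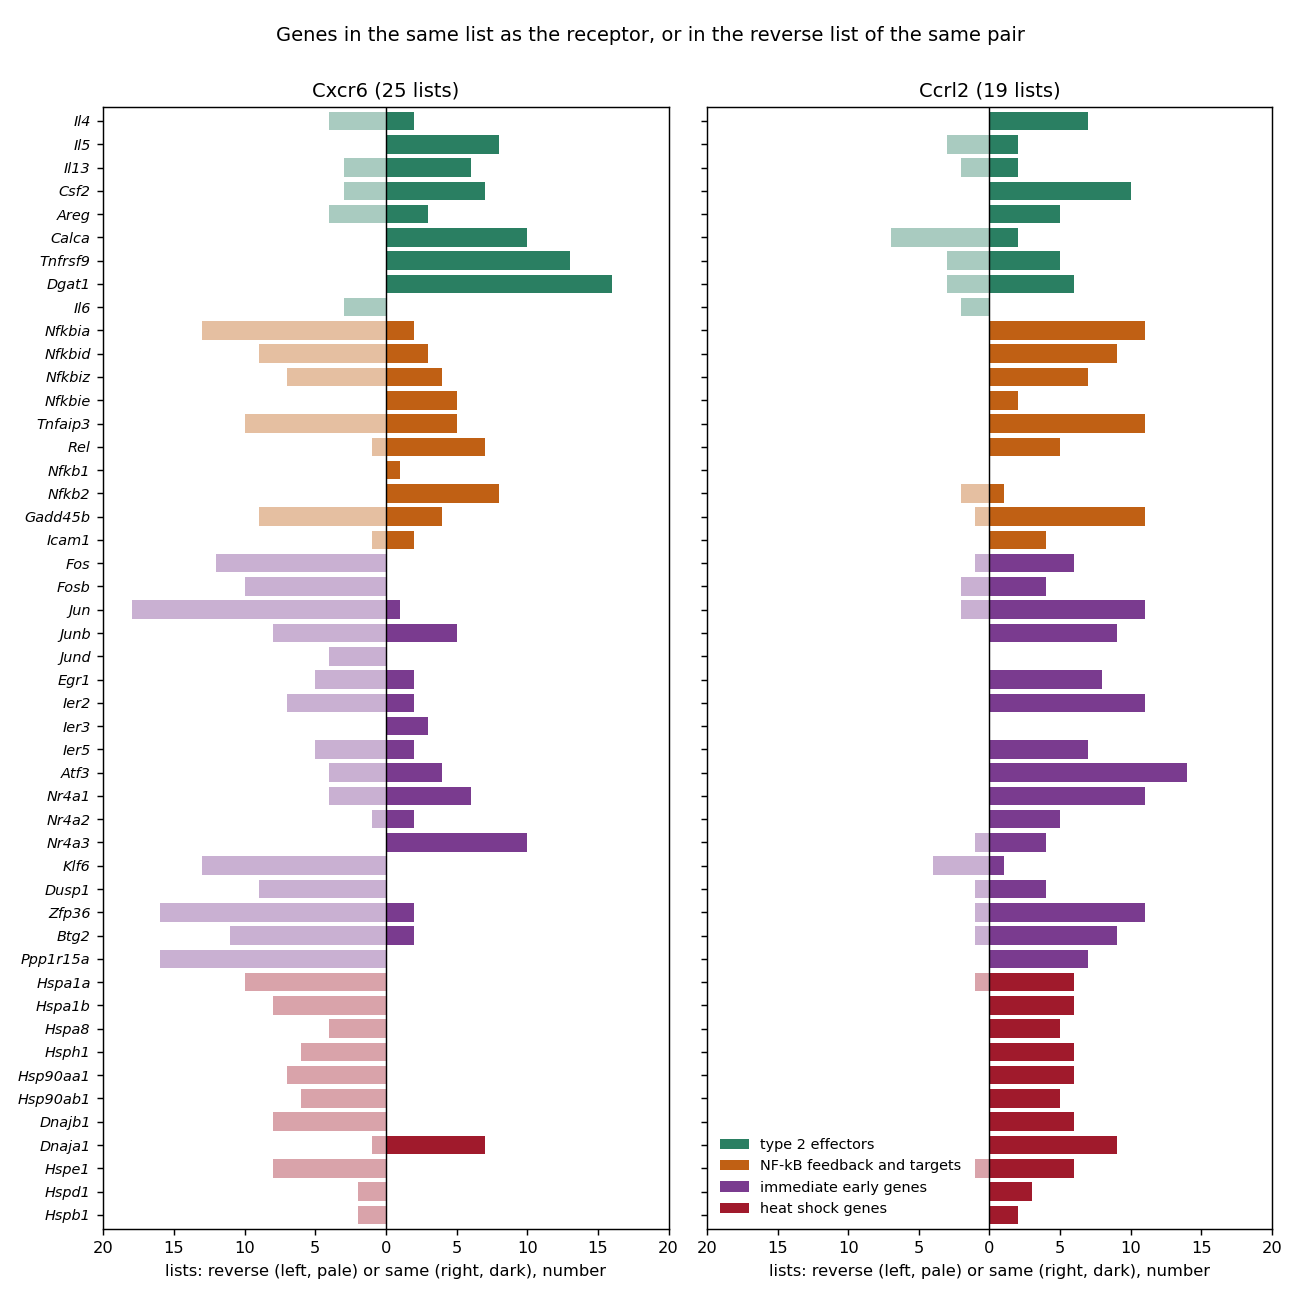
For each gene, the dark bar to the right counts the 1 versus 1 lists it shares with the receptor and the pale bar to the left counts the reverse lists of the same pairs that hold it. The left panel is Cxcr6 (25 lists) and the right panel is Ccrl2 (19 lists). Jun sits at 18 reverse lists for Cxcr6 and at 11 same lists for Ccrl2. Of 11 heat shock genes, 10 have more reverse than same lists for Cxcr6, and all 11 have more same lists for Ccrl2.

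Ccr4 was listed for 7 of 28 pairs in LI and 2 of 21 in SI. In LI, sub-cluster 0 was higher than LI 5 (place 13 of 54), LI 4 (30 of 35), LI 2 (31 of 32) and LI 3 (49 of 171). LI 6 was higher than LI 3 (32 of 100) and LI 5 (42 of 64), and LI 1 was higher than LI 3 (99 of 139). LI 7 was on neither side. In SI, sub-cluster 6 was higher than SI 5 (69 of 86) and SI 1 (73 of 75). LI 0, which listed Ifrd1 first, was the only sub-cluster with Ccr4 in its 1 versus all list, in place 38 of 39. Ccr4 came late in its lists, with a median place at 71.2% of the list length, and the lists were long, with a median of 75 genes against 16.5 over all 1 versus 1 lists. What the order of a list means is not stated in the sources used here.

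The nearest genes to Ccr4 were Tnfaip8, a regulator of cell death, and Zfand5, a ubiquitin-binding protein, each in 4 of 10 lists (0.4), followed by Nr4a3 with 6 of 16 (0.375). Il13 was in 5 of the 9 lists, and Il4, Calca, Tnfrsf9 and Dgat1 were in 4 each. Gpr132, another G protein-coupled chemoattractant receptor, was in 6. The T cell gene Cd3g was in 2 lists with Ccr4, and LI 6, which was higher in both, also held Cd3g in its 1 versus all list. Cd28, the other T cell marker in any list, was in 0 same and 2 reverse lists, and was lower in LI 6 than in LI 1, LI 2 and LI 3. The sort excluded CD3+ cells, and the study's methods state that clusters with T cell genes were removed. CCR4 is well known on T cells, and the part of T cells in the LI 6 listings was not tested.

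The promoter windows of Ccr4 and Ccrl2 are shown because both receptors shared lists with immediate early and NF-kB genes. Of the 9 lists with Ccr4, 8 held an immediate early gene and 7 an NF-kB gene. The reverse lists, with a median of 17 genes against 75, held them in 5 and 1. The AP-1 genes divided, with 1 same and 5 reverse lists for Jun, 1 and 2 for Fos, 0 and 3 for Fosb, and 3 and 0 for Junb. They come from RefSeq (GRCm38.p6), lie at chr9:114496545-114496794 and chr9:111057519-111057768, and are written on the minus strand from 5′ to 3′. Capitals mark the AP-1 motif TGANTCA and the NF-kB motif GGACTTTCC on either strand. These motifs were chosen after the sequences had been seen.
Ccr4 promoter: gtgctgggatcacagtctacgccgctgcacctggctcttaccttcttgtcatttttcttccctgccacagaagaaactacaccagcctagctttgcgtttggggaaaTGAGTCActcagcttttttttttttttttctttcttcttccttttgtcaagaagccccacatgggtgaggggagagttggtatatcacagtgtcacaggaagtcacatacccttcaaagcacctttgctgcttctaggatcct
Ccrl2 promoter: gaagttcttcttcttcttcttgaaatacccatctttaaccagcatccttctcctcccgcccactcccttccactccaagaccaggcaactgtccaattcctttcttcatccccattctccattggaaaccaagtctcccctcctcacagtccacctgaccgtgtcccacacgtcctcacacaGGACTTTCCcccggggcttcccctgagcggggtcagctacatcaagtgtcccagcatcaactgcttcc
The Ccr4 window holds the AP-1 motif from 143 to 137 bases before the start, as 6.75% of all windows do. The Ccrl2 window holds the NF-kB motif from 68 to 60 bases before the start, as 0.283% of windows do. That motif is a longer string with no free position, so its share cannot be compared with that of AP-1. Since it was chosen with the sequence in view, its rarity carries no weight. RefSeq gives 3 starts for Ccrl2, and the windows of the others overlap its transcribed part and are not shown. The Ccr4 window lies inside the span of that gene in GENCODE, and 18 of its bases overlap an exon of Ccr4. The STAT motif TTCNNNGAA (7.02% of windows) was in no window of the 5 genes. The GATA motif AGATAA (9.99%) was in the other windows of Ccrl2, and TGTGGT in that of Ltb4r1. A match describes the letters and not a bound site.

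The Ccrl2 listings were all in the gut, where the median list was longer than in the other tissues. In LI it was listed for 12 of 28 pairs. LI 7 was higher than LI 3 (place 14 of 147), LI 2 (14 of 41), LI 6 (17 of 65) and LI 1 (19 of 71). LI 0 was higher than LI 2 (26 of 32), LI 1 (32 of 54), LI 6 (47 of 106) and LI 3 (67 of 171). LI 7 listed the interferon-induced GTPase gene Gbp2 first, and its 4 places for Ccrl2 were all earlier than those of LI 0. LI 5 was higher than LI 3 (37 of 68), LI 1 (49 of 50) and LI 6 (58 of 58), and LI 4 than LI 3 (85 of 92). The 8 sub-clusters of LI fell into 2 sides with none on both: LI 0, LI 4, LI 5 and LI 7 above, and LI 1, LI 2, LI 3 and LI 6 below. Within each side no pair was listed.

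In SI, Ccrl2 was listed for 7 of 21 pairs. SI 0 was higher than SI 4 (place 27 of 50), SI 3 (28 of 32), SI 2 (29 of 49) and SI 5 (29 of 34). SI 6 was higher than SI 2 (46 of 77), SI 4 (47 of 81) and SI 3 (68 of 74). SI 1 was on neither side. The 1 versus all lists held Ccrl2 for LI 7 (place 23 of 39), LI 0 (33 of 39) and SI 0 (25 of 27), and SI 0 listed Gadd45b, a stress-response gene, first.

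Atf3, a stress-induced transcription factor, was the nearest gene to Ccrl2, with 14 of 32 lists shared (0.438). Isg15, an interferon-induced ubiquitin-like protein, shared 14 of 33 (0.424), and Ccnl1, a cyclin of the splicing machinery, 11 of 30 (0.367). Of the 19 lists with Ccrl2, 17 held an immediate early gene, 14 an NF-kB gene and 11 a heat shock gene. Over all 226 lists those groups were in 45.6%, 27.4% and 17.7%. The lists with Ccrl2 were longer, with a median of 65 genes, and a longer list holds more of any group. Of the reverse lists of the same pairs, 5 held an immediate early gene, 3 an NF-kB gene and 2 a heat shock gene, but these were short, with a median of 11 genes. Nfkbia, Tnfaip3 and Gadd45b were each in 11 lists with Ccrl2, and in 0, 0 and 1 reverse lists. Jun was in 11 and 2, Ier2 in 11 and 0, and Nr4a1 in 11 and 0. Csf2, which encodes the cytokine GM-CSF, was in 10 and 0, Il4 in 7 and 0, and Cxcl10, a chemokine induced by interferons, in 7. Calca went the other way, with 2 same and 7 reverse lists. Immediate early, NF-kB and heat shock genes also respond to handling of tissue, and the part of handling in the Ccrl2 listings was not tested.

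Cxcr6 and Ccrl2 shared 5 lists, which were 20% of those of Cxcr6 and 26.3% of those of Ccrl2. These were LI 0, LI 4 and LI 7 against LI 3, LI 0 against LI 6, and SI 0 against SI 4. They stood on opposite sides of 3 pairs, LI 1 and LI 5, SI 2 and SI 6, and SI 3 and SI 6, with Cxcr6 higher in the former of each. Ccr4 shared 3 lists with Cxcr6 and 2 with Ccrl2. The list of LI 0 against LI 3, the longest of all with 171 genes, held all 3. LI 0 was the higher side in 11 of the 29 LI entries of these receptors (37.9%), where it was the higher side in 19.4% of the 2342 entries of all genes in LI. LI 3 was the lower side in 12 (41.4%), where it was the lower side in 33.5% of all entries.

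Ccr9 had another pattern, with 7 of its 9 listings against 1 sub-cluster. It was higher in each of the 7 other BM sub-clusters than in BM 5. Its places were 2 of 14 for BM 3, 3 of 15 for BM 2, 6 of 39 for BM 0, 6 of 23 for BM 7, 11 of 38 for BM 4, 18 of 18 for BM 1 and 32 of 46 for BM 6. Of the 146 genes in the 1 versus 1 lists of BM, 3 (2.05%) were lower in BM 5 than in every other sub-cluster, namely Ccr9, Tnfaip3 and Zfp36. No list separated the 7 others from each other for Ccr9, and no sub-cluster had it in a 1 versus all list. Outside BM it was listed for lung 3 against lung 1 (15 of 18) and SI 4 against SI 3 (28 of 37). It was listed for no pair in LI or pancreas. Without comparisons that involve BM 5, 2 lists remained, so the pattern rests on that sub-cluster.

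In the same 7 BM lists, Jun, Junb, Klf9, Nfkbia, Nfkbiz, Ifrd1, Ppp1r15a and Gm20186 were each in 6. Klf9, a transcription factor of the Krüppel-like family, was nearest to Ccr9 overall with 6 of 9 lists (0.667), and was in no list without it. Hspa5, the chaperone BiP of the endoplasmic reticulum, shared 5 of 9 (0.556), also with no list of its own, and Jund, an AP-1 subunit, 5 of 10 (0.5). All 9 lists with Ccr9 held an immediate early gene, as did 5 of the 9 reverse lists. None held a chemokine or any of the 12 genes of the heat shock group, which does not include Hspa5. On the reverse side, where BM 5 was higher, Tyrobp was in 6 lists and Ccl3 and Ccl6 in 5 each. Cxcr6 and Ccr9 shared no list and were opposite in 6 pairs, BM 5 against BM 0, BM 1, BM 2, BM 4 and BM 6, and SI 3 against SI 4. BM 5 was the lower side in 29% of all BM entries and the higher side in 13.2%. The markers of other cells listed for BM 5 above apply to these listings too, and their part was not tested.

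The deposited symbol Ccr9 covers a long gene model. In GENCODE M21, 1 transcript starts far upstream and runs past Lztfl1 and Slc6a20a on the minus strand. Lztfl1 was in 1 list, lung 4 against lung 1 (place 10 of 10), and shared no list with Ccr9. The sources used here do not state whether strand was used in counting.

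Ltb4r1 was listed chiefly for pancreas 5. That sub-cluster was higher than pancreas 6 (place 11 of 13), pancreas 4 (22 of 24), pancreas 0 (25 of 33) and pancreas 2 (25 of 32), and was not separated from pancreas 1 or pancreas 3. In BM, Ltb4r1 was higher in BM 5 than in BM 0 (17 of 23), in a list that also held Cxcr6 and Alox5ap, whose product is needed to make leukotrienes. It was in no 1 versus all list, and its median place was at 78.1% of the list length. The acinar genes of pancreas 6 were all 8 in the reverse of 1 of these lists. Without comparisons that involve BM 5 or pancreas 6, Ltb4r1 was in 3 lists.

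The lists nearest to those of Ltb4r1 were of Anxa2, a calcium-dependent membrane-binding protein, with 4 of 7 shared (0.571), Grap, a signalling adaptor, with 4 of 8 (0.5), and Lgals3, which encodes galectin-3, with 3 of 7 (0.429). All came from pancreas 5. Csf2 and the chemokine gene Ccl5 were each in 3 lists with Ltb4r1. The T cell gene Cd3g was in 2, and was the only 1 of 9 T cell markers in the 1 versus all list of pancreas 5. Hba-a1, an alpha-globin gene of red cells, was in 3. BLT1 is known on activated T cells and on myeloid cells, and the part of T cells or of red cell RNA in these listings was not tested.

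**Figure D4:**
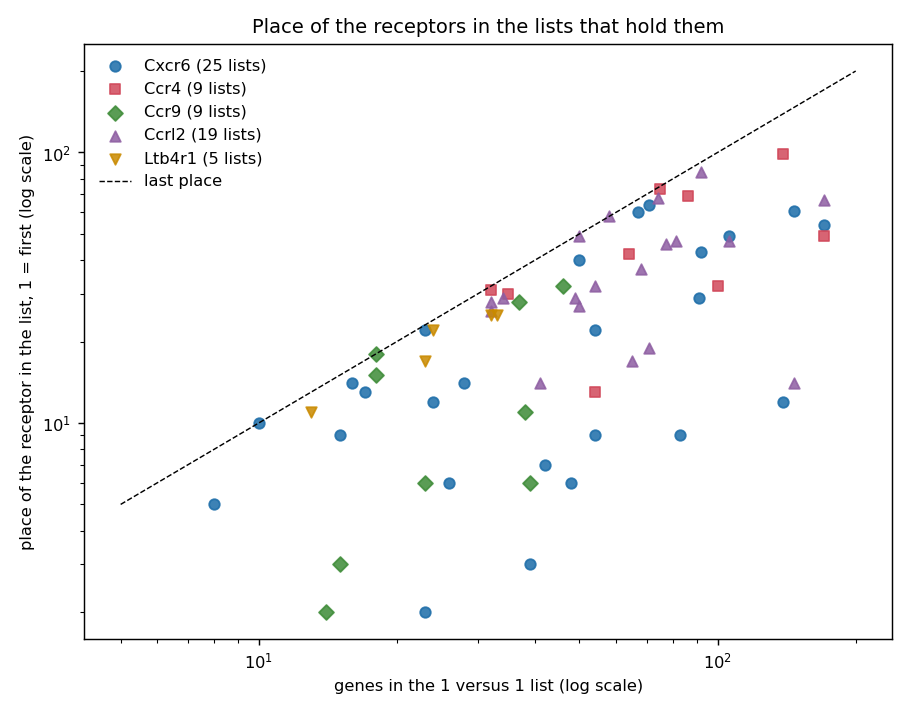
Each point is 1 of the 67 listings, with the number of genes in the 1 versus 1 list on the x axis and the place of the receptor in it on the y axis, both on log scales. The dashed line marks the last place. Cxcr6 and Ccr9 reach place 2, whereas no listing of Ltb4r1 comes before place 11, of Ccr4 before place 13 or of Ccrl2 before place 14.

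Other receptors and the ligands were looked up in the same lists. Of 19 other chemokine receptors, 2 were in any list and none in a 1 versus all list. The 5 receptors had been set apart with earlier results known, so a low count among the rest may follow from that choice. No share of the tested genes can be given, because they are not named. Ccr2, a receptor for monocyte chemoattractants, was higher in BM 5 than in BM 1 and BM 2, both with Cxcr6, and in BM 3 than in BM 1. Cxcr4, which retains cells in BM through CXCL12, was higher in LI 2 than in LI 3, also with Cxcr6. Among the receptors for other chemoattractants, Gpr65, a proton-sensing receptor, was in 21 lists, 12 of them with Cxcr6. Gpr132 was in 21, with 9 shared with Cxcr6 and 9 with Ccrl2. Gpr183, a receptor for oxysterols, was in 7, of which 3 held Ccrl2 and none Cxcr6.

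No list held the ligand genes Cxcl16, Ccl17, Ccl22, Ccl25 or Rarres2, which encodes chemerin. Of the leukotriene enzymes, Alox5ap was higher in BM 5 than in BM 0, BM 1, BM 2 and BM 3, and Alox5 in BM 1 than in BM 3. Of 36 chemokine genes, 10 were in a list, and 13 of the 25 lists with Cxcr6 held at least 1, against 26.5% of all lists. The lists with Cxcr6 were longer than those at large, as given above. Cxcl3, which attracts neutrophils, shared 5 of its 7 lists with Cxcr6, while Cxcl1, of the same group, shared none and was in 6 reverse lists. Of 18 genes for receptor signalling and its damping, 3 were listed. Rgs2, which shortens G protein signals, was in 20 lists, 8 with Cxcr6 and 6 with Ccrl2, and Rgs1 was in 7. No arrestin or receptor kinase gene of the group was in any list.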

How the data were processed

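Single-cell 3′ RNA libraries of sorted ILC2s, 1 per tissue, were sequenced, and the submitters' processing notes give mm10 as the build and list R (3.6.1), Seurat (2) and Cell Ranger. Per the study's methods, cells were filtered, log-normalised and clustered within each tissue, and clusters with signature genes of other cell types were removed. The sources used here do not state how doublets were treated. The deposited tables hold only the authors' own comparisons, as gene symbols higher in a sub-cluster, in a unit with no number. The threshold and the order of the lists are not stated in the sources used here, and depth is unknown.

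Symbols were matched exactly in all 262 columns with Python 3.11.15. Listings were counted by side, likeness was the Jaccard index over 1 versus 1 lists among genes in at least 5 of them, and no test was made, since each group had 1 library. The named genes were the 5 receptors, the 3 nearest genes to each, genes of fixed groups sharing a list with a receptor, and the first gene of 1 versus all lists that held a receptor. The members and lists were chosen with earlier results of these data known. Genes in the reverse lists of the same pairs, and those lower in BM 5 than in every other sub-cluster, were counted after the data had been seen. Positions came from GENCODE M21 and promoters from RefSeq, where all 5 genes matched. The counting was tested on simulated lists. Alternatives changed the definition of a signature, left out BM 5 and pancreas 6, or kept the first 20 entries.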

Additional observations from a re-analysis of the deposited data

How the results depend on the processing

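Of the 43 alternatives, 25 gave counts within 1.5 times the main count, or a Jaccard index within its 95% binomial interval, and 18 did not. That interval treats the lists as independent, which they are not. It served only as a cut-off for this tally and measures no error. With membership of every 1 versus 1 list as the rule, 0 sub-clusters had Cxcr6, Ccr4 or Ccrl2 as a marker, against 3, 1 and 3 in the 1 versus all lists. With membership of at least 1 such list, 10 had Cxcr6, 4 Ccr4, 9 Ccr9, 6 Ccrl2 and 2 Ltb4r1, and with at least 50% of them, 1 had Ltb4r1. Within the first 20 entries, Cxcr6 was in 15 lists, Ccrl2 in 4, Ltb4r1 in 2 and Ccr4 in 1. Without comparisons involving BM 5 or pancreas 6, Ccr9 was in 2 lists, Ltb4r1 in 3 and Cxcr6 in 20, and the nearest gene to Ccr9 became Bmp2 at 0.143, tied with another. Fewer lists and entries enter these counts by construction. Over the 1 versus all lists, where Ccr4 had only LI 0, 10 genes tied with it at 1, Isg15 was nearest to Ccrl2 at 0.75, and Il5, tied with another, replaced Basp1 as nearest to Cxcr6 at 0.667. Matching through synonyms changed no count.

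The lists carry no level, error or cell number, and 1 library per tissue cannot separate sub-cluster differences from variation between mice. Longer lists hold more genes, and the number of cells, which sets what can be listed, is not known here. No paired analysis was possible because each tissue had 1 library and no result came from a test.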
